A study of Mus musculus with 10 samples.

Results

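Purinergic signalling genes were followed in microglia sorted from the retinas of diabetic and control mice. The set comprises 10 genes, taken by gene symbol from the 55487 genes of the count table: the P2Y receptors P2ry12, P2ry13 and P2ry6, the ATP-gated channels P2rx4 and P2rx7, the ectoenzyme Entpd1, the adenosine receptors Adora3 and Adora2a, the channel Panx1 and the adenosine deaminase Ada. All 10 were found, and 9 had enough reads to be tested (Adora2a did not). The study asked how retinal microglia change over the course of streptozotocin (STZ) diabetes. STZ is a toxin that kills the pancreatic beta cells. The groups were 4 mice at 8 weeks of STZ diabetes (8wk STZ), 3 mice at 4 weeks (4wk STZ) and 3 littermates without it (Control). Every animal, Control included, was Cx3cr1GFP/+, with GFP in place of 1 copy of the fractalkine receptor gene, so that microglia and other Cx3cr1-expressing myeloid cells carry the label. Both retinas of an animal were pooled, digested with papain and sorted for GFP-positive, DAPI-negative cells, and each library holds 1 animal. Neither age, sex nor batch of the animals is in the labels, and a single Control set serves both times, so diabetes duration, age and batch cannot be told apart.

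Extracellular ATP leaks or is released from active, stressed or damaged cells and is broken down step by step on the cell surface, to ADP, AMP, adenosine and inosine. Microglia carry receptors for ATP, ADP and adenosine, among others. P2Y12 and P2Y13 sense ADP, and P2Y12 steers the processes of surveying microglia toward the source. P2Y6 senses UDP and promotes phagocytosis, the P2X channels open to ATP, and adenosine receptors respond to the end of the chain. P2Y12 is also one of the proteins by which resident microglia of brain and retina are recognised.

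Library totals were 46143178 to 62903489 reads in 8wk STZ, 33266838 to 49051036 in 4wk STZ and 45656309 to 54312248 in Control. The 10 genes took 0.778 to 0.981% of all reads in 8wk STZ, 0.910 to 1.03% in 4wk STZ and 0.872 to 1.15% in Control. P2ry12 and P2ry13 alone made up 77.9 to 85.4% of these reads over the 10 libraries. On the first principal component of log2 CPM (16.8% of the variance) and the second (14.3%), Control 3 and 4wk STZ 3 stood apart from the other libraries, so each call is also given without both. CPM, read counts scaled to a common library size by TMM factors, are the levels used here, means carry the SD over the 4, 3 and 3 animals, and calls are from edgeR's quasi-likelihood test at a Benjamini-Hochberg adjusted p below 0.05 over all 18957 genes tested. In sorted bulk cells, fewer cells of a type and less RNA per cell cannot be told apart.

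At 8 weeks the ADP receptor P2ry13 and the ectonucleotidase Entpd1 fell, and no other member passed the test in that or either other comparison. Of the 9 tested members, 2 fell and none rose in 8wk STZ against Control, where 2.37% of all tested genes were called, 0.971% as higher and 1.4% as lower. The median log2 fold change of the 9 was -0.24, beside -0.0061 over all tested genes. In 4wk STZ against Control none of the 9 was called, as was true of all genes (0% called), and the median was -0.20 beside -0.0039. At an unadjusted p below 0.05, 2 members (Entpd1 and Panx1) passed at 4 weeks, where 9.75% of all tested genes did. DESeq2, edgeR's likelihood ratio test and limma-voom called 0 members there, beside 1.77%, 1.29% and 0% of all genes. In 8wk STZ against 4wk STZ, where 0.918% of all genes were called, none of the 9 was. There, 3 members (P2ry12, P2ry13 and Entpd1) had an unadjusted p below 0.05, beside 13.7% of all genes. DESeq2 called 1 (P2ry13, adjusted p = 0.0181), where it called 7.1% of all genes, and edgeR's likelihood ratio test and limma-voom called 0, beside 4% and 1.1%. Both STZ groups are set against the same Control animals, so the values of the 2 comparisons are not independent.

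**Figure D1:**
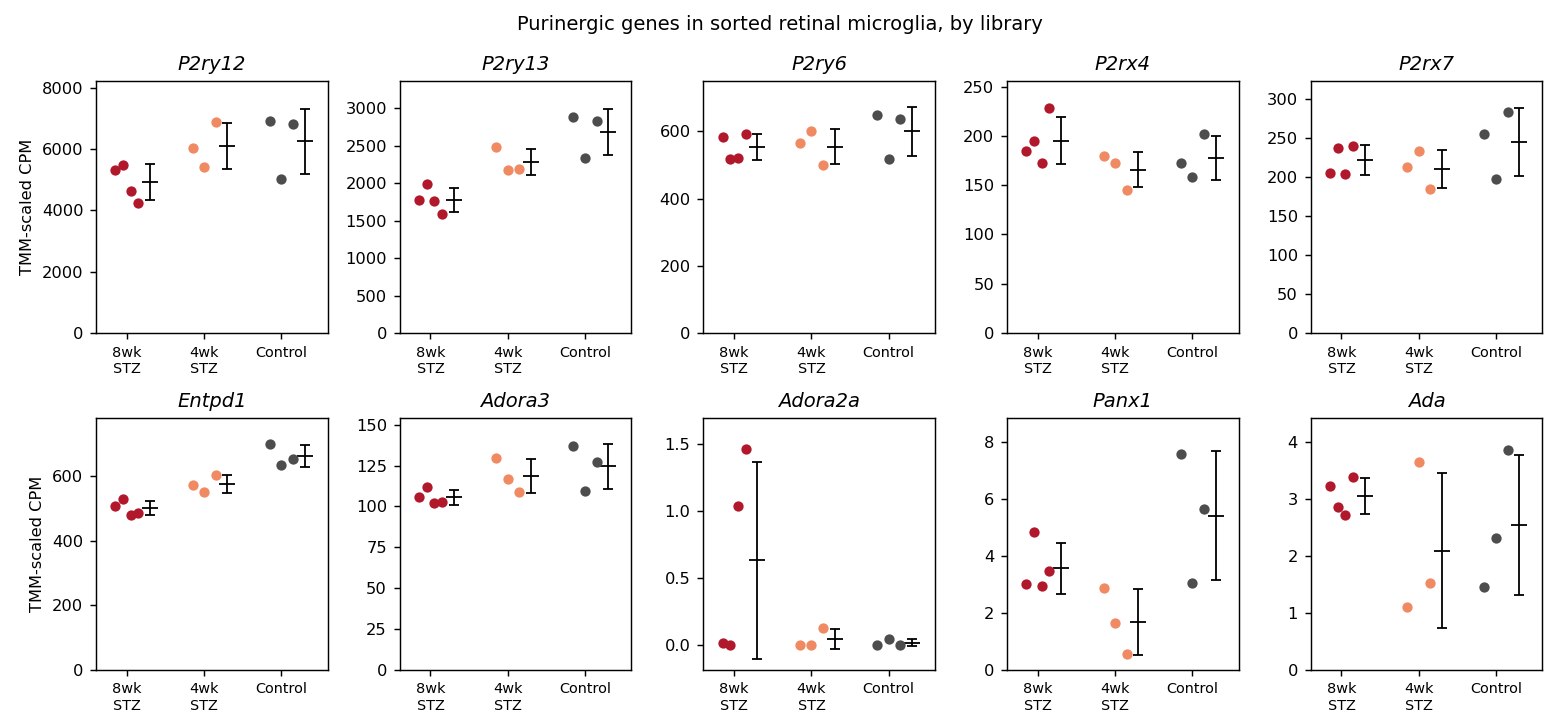
TMM-scaled CPM (y axis, linear) of the 10 purinergic genes in each library of 8wk STZ, 4wk STZ and Control; each point is 1 animal, and the bar beside the points is the group mean with its SD. Entpd1 steps down without overlap across the groups, P2ry13 at 8 weeks lies below both other groups, and Adora2a is above 1 CPM in 2 of the 10 libraries.

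P2ry12, the ADP receptor of surveying microglia, was the most abundant member and was not called. It stood at 5316, 5489, 4644 and 4231 CPM in 8wk STZ, at 6040.4, 5396 and 6876 CPM in 4wk STZ, and at 6919, 5013 and 6801 CPM in the Control libraries. The 8wk STZ libraries lay mostly at the low end, but Control 2 was lower than 2 of them, and 4wk STZ spanned much the same range as Control. Means were 4920.1 ± 587 CPM (8wk STZ), 6104 ± 742 CPM (4wk STZ) and 6244 ± 1068 CPM (Control). The log2 fold change against Control was -0.34 at 8 weeks (95% interval -0.64 to -0.047, adjusted p = 0.239) and -0.033 at 4 weeks (95% interval -0.35 to 0.29, adjusted p = 0.975).

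P2ry13, a second ADP receptor encoded just beside P2ry12, fell at 8 weeks. It had 1778, 1982, 1754 and 1589 CPM in 8wk STZ, 2474, 2175 and 2189 CPM in 4wk STZ, and 2879, 2327 and 2831 CPM in the Control libraries. All 4 8wk STZ libraries were below every 4wk STZ and Control library, whereas 4wk STZ and Control overlapped. Means were 1776 ± 161 CPM (8wk STZ), 2279 ± 169 CPM (4wk STZ) and 2679 ± 306 CPM (Control). The fall against Control was -0.59 on the log2 scale (SE 0.100, 95% interval -0.81 to -0.37, adjusted p = 0.0143). At 4 weeks the log2 fold change was -0.23 (adjusted p = 0.52), and 8wk STZ against 4wk STZ gave -0.36 (adjusted p = 0.131). The call at 8 weeks was lost without Control 1 (adjusted p = 0.0531) or without Control 3 (adjusted p = 0.0546) and held without Control 2 or any 1 of the 8wk STZ libraries. Without Control 3 and 4wk STZ 3 together it was lost as well (log2 fold change -0.55, adjusted p = 0.066). In the authors' deposited table, from a likelihood ratio test on the same libraries, P2ry13 stands at -0.60 with an FDR of 2.74e-05 for the same comparison. That test put 1055 of its 14475 genes at an FDR below 0.05 at 8 weeks.

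The 2 ADP receptors are neighbours on the minus strand of chromosome 3 (GRCm38): P2ry12 at chr3:59216272-59262871 and P2ry13 at chr3:59207892-59210882. Both lie inside Med12l (chr3:59005825-59318682), a gene of the opposite strand that encodes a Mediator subunit relative. Exons of Med12l share 9 bases with those of P2ry12 and 0 with those of P2ry13, so few reads could be shared. Med12l averaged 39.4 ± 6.83, 46.4 ± 5.11 and 43.4 ± 14.7 CPM in 8wk STZ, 4wk STZ and Control, with a log2 fold change at 8 weeks of -0.14 (adjusted p = 0.869). P2ry14, a UDP-sugar receptor of the same cluster, averaged 4.43 ± 1.15 CPM (8wk STZ), 3.94 ± 3.20 CPM (4wk STZ) and 3.74 ± 1.24 CPM (Control; log2 fold change at 8 weeks 0.25, adjusted p = 0.909). In reads of the same library, the ratio of P2ry12 to P2ry13 was 2.77 ± 0.158 (2.65 to 2.99) in 8wk STZ, 2.69 ± 0.393 (2.44 to 3.14) in 4wk STZ and 2.32 ± 0.144 (2.15 to 2.40) in Control. The ratio was higher in every STZ library than in any Control library, a description without a test.

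P2ry6, the UDP receptor linked to phagocytosis, did not pass in any comparison. Its libraries ran from 519 to 591 CPM in 8wk STZ, 499 to 599.8 CPM in 4wk STZ and 517 to 648 CPM in the Control libraries, and the groups overlapped throughout. Means were 554 ± 39.2 CPM (8wk STZ), 554 ± 51.4 CPM (4wk STZ) and 600.3 ± 72.3 CPM (Control). The 95% interval of its log2 fold change at 8 weeks, -0.34 to 0.11, holds changes of about the size seen for P2ry12 as well as none (estimate -0.12, adjusted p = 0.694).

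The ATP-gated channels are adjacent on chromosome 5, P2rx7 at chr5:122643911-122691432 and P2rx4 at chr5:122707544-122729738 (plus strand). P2rx4, whose rise in spinal microglia is tied to pain after nerve injury in rodents, had 185, 195, 173 and 228 CPM in 8wk STZ, 179.6, 173 and 145 CPM in 4wk STZ, and 173, 158 and 202 CPM in the Control libraries. P2rx7, the low-affinity ATP channel that drives inflammasome activation, had 206, 238, 204 and 239.7 CPM in 8wk STZ, 213, 233 and 185 CPM in 4wk STZ, and 255, 197 and 283 CPM in the Control libraries. For both channels the groups overlapped in all 3 comparisons. At 8 weeks the log2 fold change was 0.13 for P2rx4 (95% interval -0.14 to 0.41, adjusted p = 0.718). For P2rx7 it was -0.14 (95% interval -0.43 to 0.15, adjusted p = 0.706). Reads of P2rx7 over those of P2rx4 came to 1.14 ± 0.0752 in 8wk STZ, 1.27 ± 0.0817 in 4wk STZ and 1.37 ± 0.114 in Control. Every 8wk STZ library had a lower ratio than every Control library, again without a test or a share over all gene pairs.

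Entpd1 encodes CD39, the surface enzyme that strips phosphates from ATP and ADP and so clears the ligands of the P2X and ADP receptors. It fell at 8 weeks. It had 509, 529, 480.4 and 485 CPM in 8wk STZ, 573, 549.8 and 605 CPM in 4wk STZ, and 699, 634 and 654 CPM in the Control libraries. The 3 groups did not overlap at all, with 8wk STZ below 4wk STZ and 4wk STZ below Control, an order without overlap that 0.38% of all tested genes showed. Means were 501 ± 22.6 CPM (8wk STZ), 576 ± 27.5 CPM (4wk STZ) and 662 ± 33.1 CPM (Control). The fall at 8 weeks was -0.40 on the log2 scale (SE 0.0736, 95% interval -0.56 to -0.24, adjusted p = 0.0187). At 4 weeks the log2 fold change was -0.20 (SE 0.0792, adjusted p = 0.46), and 8wk STZ against 4wk STZ gave -0.20 (adjusted p = 0.255). The 8-week call held without Control 2 (adjusted p = 0.0409) or 8wk STZ 2 (adjusted p = 0.0321). It was lost without Control 1 (0.0676), Control 3 (0.0602), 8wk STZ 1 (0.0521), 8wk STZ 3 (0.0626) or 8wk STZ 4 (0.063, all adjusted p). It was also lost without Control 3 and 4wk STZ 3 together (adjusted p = 0.0624), and when scaled by library totals alone (log2 fold change -0.30, adjusted p = 0.0714). The authors' deposited table gives Entpd1 a log2 fold change of -0.41 with an FDR of 0.00639, by the likelihood ratio test that put 1055 of 14475 genes below 0.05.

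Counted without a test, the groups of 2 members did not overlap in 8wk STZ against Control (P2ry13 and Entpd1, both lower), where 16.9% of all tested genes did not. In 4wk STZ against Control these were Entpd1 and Panx1, both lower in 4wk STZ, with a share of 12.3% over all genes. In 8wk STZ against 4wk STZ they were P2ry13 and Entpd1, lower in 8wk STZ, and Panx1, higher there, with a share of 15.4%.

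**Figure D2:**
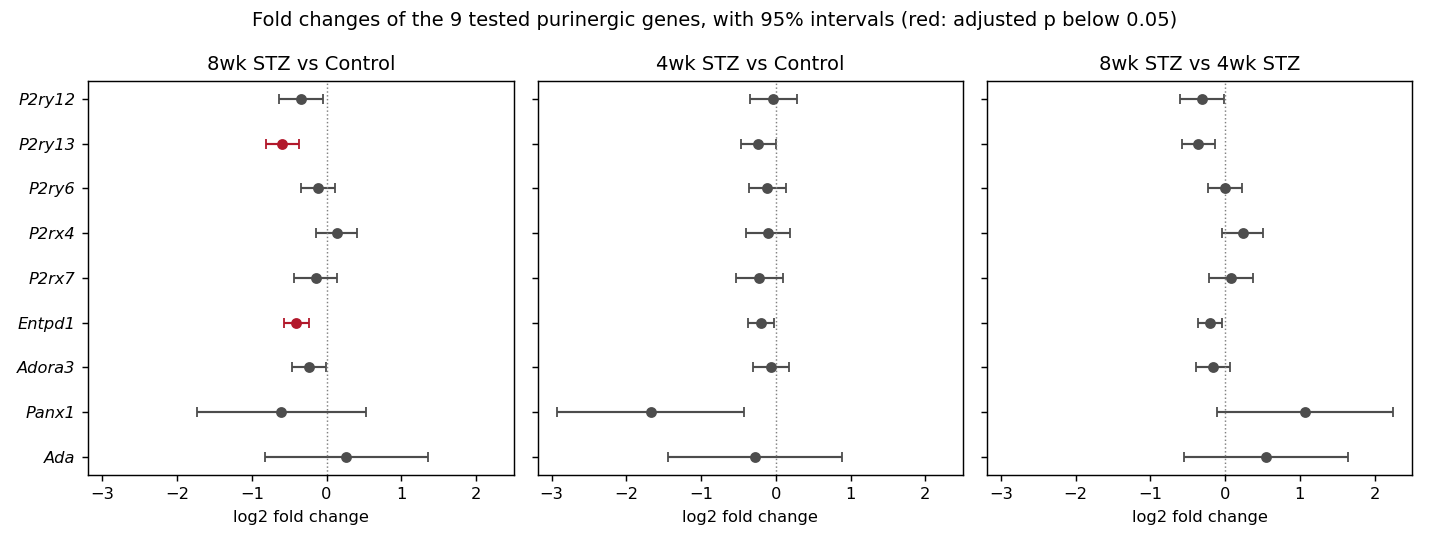
Log2 fold changes (x axis, the same scale in each panel) of the 9 tested purinergic genes (y axis) in 3 panels, from left to right the 8-week animals over Control, the 4-week animals over Control, and the later over the earlier STZ time. Points are edgeR estimates, bars are 95% intervals, and red marks an adjusted p below 0.05: P2ry13 at -0.59 and Entpd1 at -0.40 in the 8-week panel, and none elsewhere.

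The RefSeq promoter windows of the genes that fell are given here with that of the neighbour P2ry12, since the 2 ADP receptors lie side by side and only P2ry13 passed. Each window runs from 250 bases before to 50 bases after an annotated start and is read on the gene's strand, from the RefSeq promoter table of GRCm38.p6, which held 8 of the 10 members (P2ry6 and Adora2a had no entry). Capitals mark GAGGAA, a core form of the sites bound by PU.1, the transcription factor of the myeloid lineage. It was searched on both strands. The windows are chr3:59210833-59211132 (minus strand) for P2ry13, chr19:40612116-40612415 and chr19:40659520-40659819 (plus strand) for the first and second starts of Entpd1, and chr3:59262936-59263235 (minus strand) for P2ry12, whose RefSeq start lies just upstream of the GENCODE gene.
P2ry13: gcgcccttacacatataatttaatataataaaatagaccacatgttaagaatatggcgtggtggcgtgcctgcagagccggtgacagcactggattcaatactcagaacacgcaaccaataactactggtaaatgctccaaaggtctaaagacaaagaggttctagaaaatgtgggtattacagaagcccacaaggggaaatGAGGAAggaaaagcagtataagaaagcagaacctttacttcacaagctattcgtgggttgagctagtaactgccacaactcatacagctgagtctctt
Entpd1 first start: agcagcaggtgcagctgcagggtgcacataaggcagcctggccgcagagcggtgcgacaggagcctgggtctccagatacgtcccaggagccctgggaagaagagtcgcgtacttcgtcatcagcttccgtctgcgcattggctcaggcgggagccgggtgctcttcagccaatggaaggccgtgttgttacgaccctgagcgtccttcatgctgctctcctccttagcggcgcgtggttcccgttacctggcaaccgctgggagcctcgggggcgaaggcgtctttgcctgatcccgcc
Entpd1 second start: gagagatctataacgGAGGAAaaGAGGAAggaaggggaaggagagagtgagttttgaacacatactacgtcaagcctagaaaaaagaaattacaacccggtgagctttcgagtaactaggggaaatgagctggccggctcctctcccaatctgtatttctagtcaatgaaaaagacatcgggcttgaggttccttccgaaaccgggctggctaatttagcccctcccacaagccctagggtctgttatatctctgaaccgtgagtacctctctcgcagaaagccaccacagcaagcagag
P2ry12: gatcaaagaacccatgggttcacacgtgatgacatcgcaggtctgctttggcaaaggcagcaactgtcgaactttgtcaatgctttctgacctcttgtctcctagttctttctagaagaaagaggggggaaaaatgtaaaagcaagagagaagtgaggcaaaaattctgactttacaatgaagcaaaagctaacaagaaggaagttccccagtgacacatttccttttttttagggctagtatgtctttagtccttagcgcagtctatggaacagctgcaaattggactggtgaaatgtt
The P2ry13 window holds 1 match, which begins 48 bases before the start. The window of the second Entpd1 start holds 2, which begin 235 and 227 bases before it, and the windows of the first Entpd1 start and of P2ry12 hold 0. Of the windows not printed, that of Adora3 and each of P2rx7 hold 1 match, and those of P2rx4, Panx1 and Ada hold 0. Neither Adora3 nor P2rx7 was called, and a link between matches and calls was not tested. Other forms of the PU.1 site were not searched. The same letters occur in 28.3% of all 32851 promoter windows, so a match describes the sequence and marks no site. The counts are per gene and do not tell the 2 Entpd1 starts apart.

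Among the members that sense adenosine, none passed the test. Adora3, an adenosine receptor that lowers cyclic AMP and is abundant in rodent microglia, had 106, 112, 102 and 103 CPM in 8wk STZ, 129.9, 117 and 109 CPM in 4wk STZ, and 137, 109 and 127 CPM in the Control libraries. Control 2 was within the 8wk STZ range and the other Control libraries were above it. The log2 fold change was -0.24 at 8 weeks (95% interval -0.46 to -0.012, adjusted p = 0.292) and -0.070 at 4 weeks (adjusted p = 0.909). Its exons share 779 bases, 20.9% of its exonic length, with Tmigd3 on the same strand, so reads of the shared stretch may be assigned to either gene or to none. Tmigd3 had 25 to 86 reads in a library.

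Adora2a, an adenosine receptor that raises cyclic AMP and is known to drive process retraction in activated mouse microglia, was almost unread. Its reads were 1, 0, 52 and 87 in 8wk STZ, 0, 0 and 4 in 4wk STZ, and 0, 2 and 0 in Control. Nearly all of them came from 8wk STZ 3 and 8wk STZ 4, at 1.03 and 1.46 CPM, while the other 8wk STZ libraries had 0.0159 and 0 CPM. Summed over a group there were 140 reads in 8wk STZ and 2 in Control. Per TMM-scaled library size the ratio was 44.6, with a 95% counting interval of 12.1 to 372. That interval covers counting error only and leaves out the spread between animals, which is wide. Without the filter on low counts, edgeR's quasi-likelihood test gave an adjusted p of 0.332 for 8wk STZ against Control and 0.485 for 8wk STZ against 4wk STZ. The summed border macrophage markers were at opposite ends in the 2 libraries that carried Adora2a reads, 668 CPM in 8wk STZ 4 and 62.4 CPM in 8wk STZ 3, the highest and the lowest of the 10. The 8 lymphocyte markers summed to 5.27 CPM in 8wk STZ 4, the most of its group, and to 1.19 CPM in 8wk STZ 3, against 0.524 and 0.802 CPM in the other 8wk STZ libraries. In 8wk STZ 4 most of that sum was Nkg7, a gene of cytotoxic lymphocytes, with 230 reads. Over all 10 libraries the lymphocyte sum was highest in Control 3, at 6.46 CPM with 252 reads of Nkg7. In 4wk STZ 1 it was 3.51 CPM. Control 3 and 4wk STZ 1 each had 0 reads of Adora2a. The part of other myeloid cells and of lymphocytes in these reads was not tested.

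Panx1, a membrane channel through which cells release ATP, and Ada, which turns adenosine into inosine, were both read at a few CPM. Panx1 had 3.00, 4.85, 2.93 and 3.48 CPM in 8wk STZ, 2.87, 1.64 and 0.560 CPM in 4wk STZ, and 7.57, 3.04 and 5.64 CPM in the Control libraries. The 4wk STZ libraries were the lowest of all, with 138, 79 and 18 reads, and 8wk STZ overlapped Control. The log2 fold change at 4 weeks was -1.68 (SE 0.569, 95% interval -2.93 to -0.42), which did not pass (adjusted p = 0.379). The authors' deposited table gives Panx1 -1.67 with an FDR of 0.192 at 4 weeks. At 8 weeks the log2 fold change was -0.60 (95% interval -1.74 to 0.53, adjusted p = 0.676). Ada averaged 3.05 ± 0.311, 2.09 ± 1.36 and 2.55 ± 1.23 CPM in 8wk STZ, 4wk STZ and Control, its groups overlapped in all 3 comparisons, and its adjusted p at 8 weeks was 0.892. With 49 to 204 reads per library, the 95% interval of the Ada change at 8 weeks ran from -0.83 to 1.35 on the log2 scale.

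Levels of different genes were compared per kilobase of exon. The order of the group means was the same in 8wk STZ, 4wk STZ and Control: P2ry12, P2ry13, P2ry6, Entpd1, P2rx7, Adora3, P2rx4, Ada, Panx1 and Adora2a. In the order 8wk STZ, 4wk STZ and Control, the mean level of P2ry12 was 1933, 2398 and 2453 CPM per kilobase. In the same order P2ry13 had 702, 902 and 1060 CPM per kilobase, P2ry6 had 192, 192 and 208, and Entpd1 had 89.8, 103 and 119. The next step down, still as 8wk STZ, 4wk STZ and Control, was to P2rx7 (37.1, 35.2 and 41.0 CPM per kilobase), Adora3 (28.3, 31.8 and 33.4) and P2rx4 (27.8, 23.6 and 25.3). Among these 3 neighbours the ranges overlapped for Adora3 and P2rx4 in 8wk STZ and for P2rx7 and Adora3 in 4wk STZ and in Control, so their order is within the spread there. Ada and Panx1 overlapped in Control and not in the STZ groups. Panx1 stood at 0.591 (8wk STZ), 0.280 (4wk STZ) and 0.898 (Control) CPM per kilobase, and Adora2a below it in every group mean.

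The rest of the pathway was read from a list of 40 further receptors, nucleotidases, channels, nucleoside transporters and salvage enzymes, of which 30 were tested. At 8 weeks 1 rose (Adora1) and 3 fell (Slc29a3, Slc29a1 and Alpl), beside 0.971% and 1.4% of all genes. The median log2 fold change was -0.13, beside -0.0061 over all genes, and was the same with Slc28a2, which had 0 reads in Control, set to a floor of 3 reads over that group. At 4 weeks none of the 30 was called, with 5 at an unadjusted p below 0.05 (9.75% of all genes), 3 called by DESeq2 (1.77% of all genes), 1 by edgeR's likelihood ratio test (1.29%) and 0 by limma-voom (0%), and a median of -0.048. Between 8wk STZ and 4wk STZ none was called, with 4 at an unadjusted p below 0.05, near the 13.7% of all genes. DESeq2 called 1 (7.1% of all genes) and the other 2 tools 0 (4% and 1.1%), and the median was -0.071. The 10 genes not tested had 0 to 88 reads over all libraries, among them the P2Y receptors P2ry1 (78 reads) and P2ry4 (3 reads) and the channel P2rx2 (12 reads).

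Slc29a3, which had the lowest adjusted p of the wider list, is a nucleoside transporter of lysosomes that is known in macrophages. It had 335, 381, 409 and 389 CPM in 8wk STZ, 469, 473 and 448 CPM in 4wk STZ, and 678, 541 and 659 CPM in the Control libraries. As with Entpd1, the 3 groups lay apart, with 8wk STZ lowest and Control highest. The fall at 8 weeks was -0.73 on the log2 scale (SE 0.0971, adjusted p = 0.00525) and was called without any 1 of the 7 libraries compared (adjusted p = 0.00583 to 0.0262) and without Control 3 and 4wk STZ 3 together (adjusted p = 0.0314). At 4 weeks its log2 fold change was -0.43 (adjusted p = 0.252).

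Slc29a1, a transporter that equilibrates adenosine across the plasma membrane, fell to 109 ± 10.7 CPM in 8wk STZ, against 162 ± 13.1 CPM in Control (-0.57 on the log2 scale, SE 0.118, adjusted p = 0.0332). Every 8wk STZ library was below every Control library, and 4wk STZ averaged 133 ± 19.8 CPM. Its exons share 6.86% of their length with the antisense gene Gm17080, which had at most 33 reads in a library. The call held without 8wk STZ 4 (adjusted p = 0.0412) and was lost without any 1 of the other 6 libraries of these 2 groups, at an adjusted p of 0.0521 to 0.116 (0.112 without Control 3 and 4wk STZ 3 together). It was also lost when scaled by library totals alone (-0.46, adjusted p = 0.065). Alpl, the tissue-nonspecific alkaline phosphatase that can also dephosphorylate AMP, fell to 12.7 ± 2.94 CPM in 8wk STZ, against 29.5 ± 3.17 CPM in Control (-1.22 on the log2 scale, SE 0.223, adjusted p = 0.0196). Again no 8wk STZ library reached the Control range, and 4wk STZ averaged 20.2 ± 4.94 CPM. Its call held without Control 3 (adjusted p = 0.0461) or 8wk STZ 2 (adjusted p = 0.0244) and was lost without Control 1, Control 2, 8wk STZ 1, 8wk STZ 3 or 8wk STZ 4, at an adjusted p of 0.0507 to 0.0693. Without Control 3 and 4wk STZ 3 together it held (adjusted p = 0.0379).

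Adora1, an adenosine receptor that lowers cyclic AMP and is typical of neurons, was the only gene of the wider list called as higher at 8 weeks. It had 39.0, 34.8, 34.2 and 72.8 CPM in 8wk STZ, 36.8, 45.0 and 42.3 CPM in 4wk STZ, and 16.4, 15.0 and 22.9 CPM in the Control libraries. All STZ libraries of both times were above all Control libraries, and 8wk STZ 4 stood well above the rest of its group. The log2 fold change was 1.32 at 8 weeks (SE 0.278, adjusted p = 0.0356) and 1.19 at 4 weeks (adjusted p = 0.253). The call held without 8wk STZ 2 (adjusted p = 0.0496) or 8wk STZ 4 (adjusted p = 0.0402) and was lost without Control 1, Control 2, Control 3, 8wk STZ 1 or 8wk STZ 3, at an adjusted p of 0.0511 to 0.116 (0.0627 without Control 3 and 4wk STZ 3 together). It was also lost when 8wk STZ and Control alone were fitted (adjusted p = 0.062). Its exons share 20.1% of their length with Mybph on the opposite strand, so their reads cannot be fully told apart. Mybph had 10.3 ± 2.53, 7.33 ± 1.82 and 5.99 ± 2.50 CPM in 8wk STZ, 4wk STZ and Control (log2 fold change at 8 weeks 0.78, adjusted p = 0.327). The summed markers of inner retinal neurons were lower in every 8wk STZ library than in any Control library, at 83.3 to 117 CPM in 8wk STZ against 211 to 232 CPM in Control (180 to 214 CPM in 4wk STZ). Of the 10 markers, 6 were lower in every 8wk STZ library than in any Control library, and 4 overlapped (Stmn2, Rbpms, Gad2 and Prkca). Snap25 was the largest part of the sum, at 40.2 to 55.1 CPM in 8wk STZ and 105 to 111 CPM in Control. All 10 of these markers had reads in each group, and their part in the Adora1 values was not tested.

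Other well-read genes of the pathway did not pass. Kcnk13, a potassium channel with a part in microglial surveillance in rodents, had 85.5, 102 and 113 CPM in 8wk STZ, 4wk STZ and Control (log2 fold change at 8 weeks -0.40, adjusted p = 0.202). Lrrc8a, a subunit of the volume-regulated anion channel, had 279 (8wk STZ), 294 (4wk STZ) and 303 CPM (Control; log2 fold change at 8 weeks -0.12, adjusted p = 0.643). It shares 66.2% of its exonic length with Gm28035 on the same strand, which had at most 8 reads in a library. Calhm2, a membrane channel of the calcium homeostasis modulator family, had 75.5 (8wk STZ), 69.1 (4wk STZ) and 75.2 CPM (Control; log2 fold change at 8 weeks 0.0050, adjusted p = 0.995). Nt5e, the enzyme that follows CD39 and makes adenosine from AMP, is named here after its values were seen. It had 7.32 ± 3.07, 9.22 ± 4.85 and 14.2 ± 7.93 CPM in 8wk STZ, 4wk STZ and Control (log2 fold change at 8 weeks -0.96, adjusted p = 0.364).

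**Figure D3:**
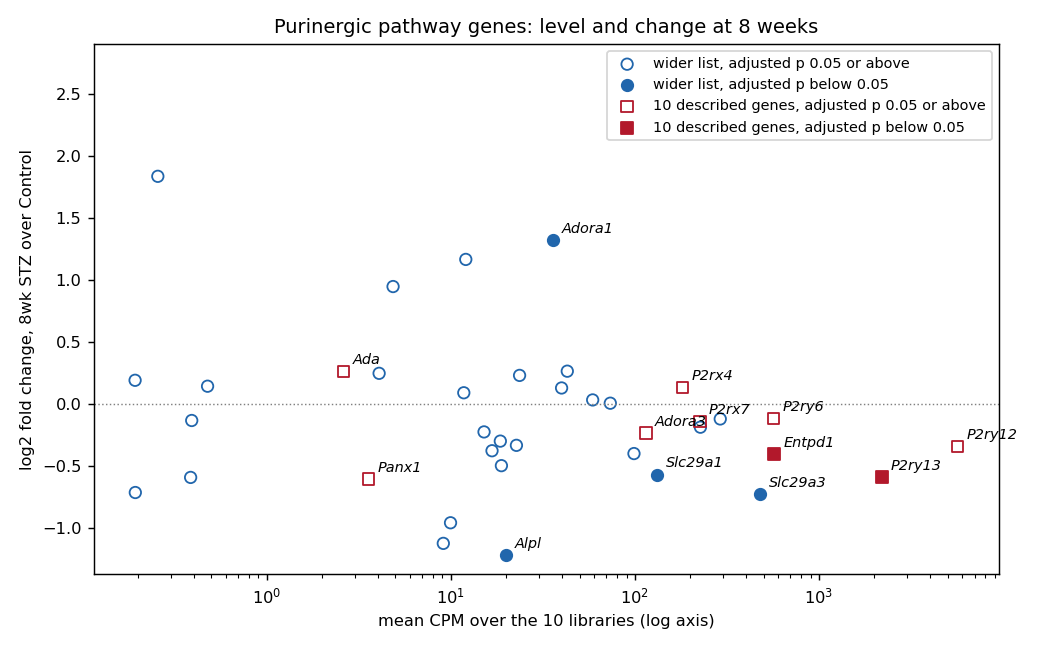
Level (x axis, mean CPM over the 10 libraries, log axis) and log2 fold change of 8wk STZ over Control (y axis) of the 9 tested members (squares) and the tested genes of the wider purinergic list (circles), filled where the adjusted p was below 0.05. Slc28a2, which had no read in Control, is left out. The filled symbols below 0 are P2ry13, Entpd1, Slc29a3, Slc29a1 and Alpl, and the one above 0 is Adora1.

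The sorted cells carried microglial markers in every library, and their summed level moved with the groups. The sum of 7 microglial markers outside the purinergic set (Tmem119, Csf1r, Cx3cr1, Aif1, Sall1, Gpr34 and Siglech) was 18590 ± 363 CPM in 8wk STZ, 20999 ± 951 CPM in 4wk STZ and 23422 ± 1036 CPM in the Control libraries. Its libraries ran from 18205 to 18988 CPM (8wk STZ), 19919 to 21714 CPM (4wk STZ) and 22500 to 24543 CPM (Control), 3 ranges that did not overlap and that followed the same order as Entpd1. Csf1r was the largest part of the sum, at 7478 to 8115 CPM in 8wk STZ and 10162 to 11329 CPM in Control. The 7 markers did not move alike. Csf1r, Tmem119 and Cx3cr1 were lower in every 8wk STZ library than in any Control library, Aif1, Sall1 and Gpr34 overlapped, and Siglech was higher, at 1360 to 1471 CPM in 8wk STZ against 688 to 897 CPM in Control. Transcripts of rod photoreceptors, which a gate for GFP does not select, moved too: 12 rod markers summed to 2662 to 3748 CPM in 8wk STZ, 4309 to 6219 CPM in 4wk STZ and 8962 to 9946 CPM in the Control libraries. All 12 had reads in each group. Apoe, made by retinal glia and by activated microglia, ran the other way, at 5178 to 19382 CPM in 8wk STZ, 2431 to 5061 CPM in 4wk STZ and 1902 to 4487 CPM in the Control libraries. With Apoe, the 10 markers of Müller glia and astrocytes summed to 5955 to 20133 CPM in 8wk STZ, 3539 to 6330 CPM in 4wk STZ and 2837 to 5809 CPM in Control. Without Apoe the other 9 summed to 666 to 966 CPM in 8wk STZ, 1108 to 1269 CPM in 4wk STZ and 934 to 1396 CPM in Control, and 4 of them (Slc1a3, Slc1a2, Aqp4 and Clu) were lower in every 8wk STZ library than in any Control library. The 8 border macrophage markers gave 62.4 to 668 CPM (8wk STZ), 157 to 421 CPM (4wk STZ) and 146 to 439 CPM (Control), ranges that overlapped, with Cd163 at 0 in 8wk STZ 3. Neutrophil markers summed to at most 0.303 CPM, lymphocyte markers to at most 6.46 CPM and monocyte markers to at most 35.0 CPM in a library. The 10 immediate early genes, which also respond to cell dissociation, summed to 898 to 1406 CPM in 8wk STZ, 698 to 1065 CPM in 4wk STZ and 616 to 967 CPM in Control. Of these, Fos, Junb, Atf3 and Dusp1 were higher in every 8wk STZ library than in any Control library (Fos 57.8 to 144 CPM in 8wk STZ, against 14.1 to 54.3 CPM in Control), and the other 6 overlapped. The part of these shifts in the falls of P2ry13 and Entpd1 was not tested.

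Set against the microglial marker sum of the same library, P2ry12, P2ry13 and Entpd1 each overlapped between 8wk STZ and Control. Entpd1 came to 2.69 ± 0.0729% of the sum in 8wk STZ, 2.74 ± 0.0969% in 4wk STZ and 2.83 ± 0.173% in Control, and the groups overlapped. P2ry13 came to 9.54 ± 0.701% (8.73 to 10.4%) in 8wk STZ, 10.9 ± 0.577% in 4wk STZ and 11.4 ± 1.03% (10.3 to 12.4%) in Control, so that on this scale 8wk STZ and Control overlapped. P2ry12 was at 26.4 ± 2.65% (8wk STZ), 29.0 ± 2.76% (4wk STZ) and 26.6 ± 3.88% (Control) of the sum. Slc29a3 of the wider list, set on this scale as well, did not overlap between 8wk STZ and Control. It ran from 1.78 to 2.22% in 8wk STZ, 2.10 to 2.37% in 4wk STZ and 2.41 to 2.92% in Control. The other called genes of the wider list were not set on this scale. P2rx4 was the only 1 of the 10 genes whose 8wk STZ and Control libraries did not overlap on this scale, at 1.05 ± 0.140% (0.941 to 1.25%) in 8wk STZ, 0.791 ± 0.0979% in 4wk STZ and 0.758 ± 0.0618% (0.703 to 0.825%) in Control. The share of all genes without overlap was not counted on this scale (16.9% on the CPM scale). The marker sum was lower in 8wk STZ, so a gene with steady CPM comes out higher there on this scale. On the CPM scale the groups of P2rx4 overlapped (log2 fold change at 8 weeks 0.13, adjusted p = 0.718, edgeR's quasi-likelihood test). These ratios are descriptions without a test.

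**Figure D4:**
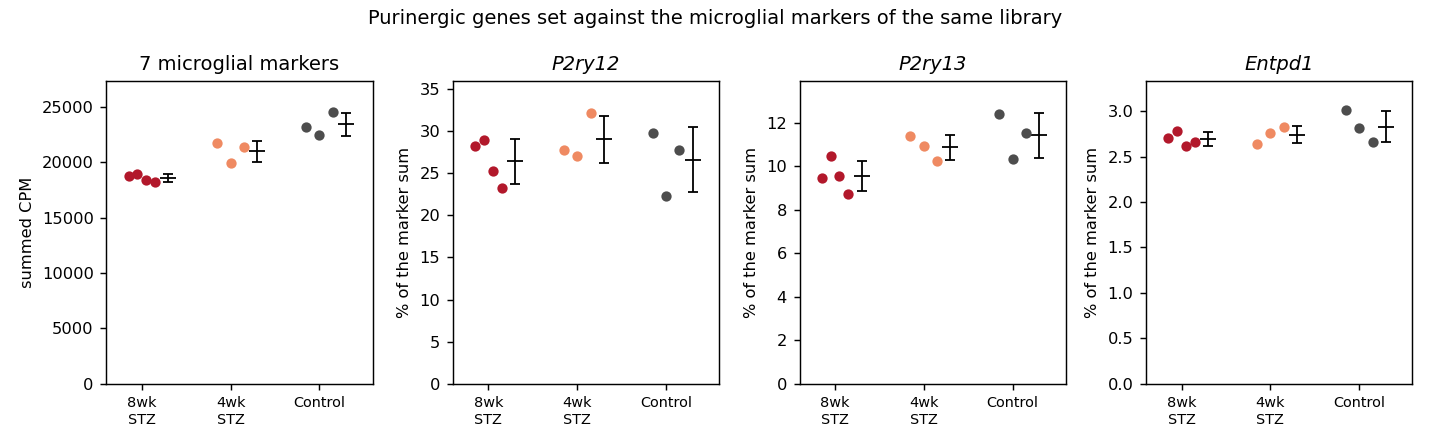
Summed CPM of 7 microglial markers (first panel) and P2ry12, P2ry13 and Entpd1 as a percent of that sum in the same library (other panels; y axes start at 0), for 8wk STZ, 4wk STZ and Control; points are animals and bars are group means with SD. The marker sum is lowest in 8wk STZ and highest in Control, while the Entpd1 share stays near 2.69 to 2.83% in each group mean. Csf1r, itself lower in 8wk STZ, is the largest part of the sum, so each share is in large part a ratio to Csf1r.

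By likeness of profile over the 10 libraries, measured as the mean absolute difference of centred log2 CPM among 4496 genes whose log2 CPM averaged 5 or more, the genes close to P2ry12 included Tspyl1 (0.0722) and Gpr34 (0.0740). P2ry13 lay closest to Abca9 (0.0762), Mboat7 (0.0802) and Adgrg1 (0.0825). Adora3 lay closest to Slco2b1 (0.0548), Ifngr1 (0.0583) and Sec22b (0.0633).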

How the data were processed

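RNA of GFP-positive retinal cells was copied with the SMARTer Ultra Low kit (full-length, polyadenylated, not strand-marked), amplified by PCR and read in pairs on a NovaSeq, per the labels' protocols. Raw read counts per gene were deposited by the authors, per the file headers. Tools named in the submitters' processing notes are STAR, featureCounts of Subread, Salmon, bcl2fastq, limma and edgeR, with GRCm38 as the build. Not given in the sources used here: the strand setting, annotation release and handling of multiply mapping reads. The second deposited table gives the authors' log2 fold changes, likelihood ratio score, p-value and FDR for 14475 genes, and only values named as the authors' come from it.

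Of 55774 entries, 287 repeated an identifier and were dropped. Genes were filtered with filterByExpr by group, scaled by TMM (factors 0.947 to 1.08) and modelled in edgeR 4.0.16 (R 4.3.3) as 3 group means over the 10 libraries, which leaves 7 residual degrees of freedom (biological coefficient of variation 0.564). The robust quasi-likelihood F-test was adjusted by Benjamini-Hochberg over 18957 genes. DESeq2 1.42.0, limma-voom (limma 3.58.1), other scalings, no filter, left-out libraries and a replicate term were tried. The code was tested on simulated data. No 2 libraries of a group were alike within sampling noise (chi-square over degrees of freedom at least 48.2). Counting intervals are 95%, and reads carry no molecular identifiers. Positions are from GENCODE vM21. The 10 genes, the wider list and the marker lists were chosen with earlier results of these data known. The named genes are the 10, the called genes and 6 most highly expressed genes of the wider list, exon-sharing neighbours, and the 3 nearest profiles (mean log2 CPM of at least 5) to P2ry12, P2ry13 and Adora3. A marker gene and a gene of near profile are not reported here, and the microglial marker sum was taken without that marker.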

Additional observations from a re-analysis of the deposited data

Results flagged for a closer look

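Adora1 in 8wk STZ 4 stood at 72.8 CPM, far from the other libraries of its group, which ran from 34.2 to 39.0 CPM. It was the 1 gene with such a library among 18 checked in this group, where chance gives about 1 in 20. The same library held the most Apoe (19382 CPM) and the highest border macrophage marker sum (668 CPM). In both, 8wk STZ 1 came next, at 14667 and 511 CPM, with Adora1 at 39.0 CPM. The part of these shifts in the Adora1 value of 8wk STZ 4 was not tested. Without 8wk STZ 4 the rise of Adora1 at 8 weeks was 0.99 on the log2 scale (adjusted p = 0.0402).

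Hprt, which salvages hypoxanthine and guanine, lay on opposite sides of Control at the 2 times: every 8wk STZ library was below the Control mean and every 4wk STZ library above it. It averaged 202 ± 12.6 CPM in 8wk STZ, 257 ± 22.5 CPM in 4wk STZ, with Control at 229.8 ± 18.6 CPM, and each STZ group overlapped Control. Neither difference from Control passed (log2 fold change -0.19, adjusted p = 0.379 at 8 weeks, and 0.16, adjusted p = 0.661 at 4 weeks, edgeR's quasi-likelihood test). The difference of 8wk STZ minus 4wk STZ was -55.7 CPM. The direct comparison of 8wk STZ with 4wk STZ gave a log2 fold change of -0.35, which did not pass (adjusted p = 0.115, edgeR's quasi-likelihood test; the range over alternatives was 0.0134 to 0.367).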

How the results depend on the processing

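Of the 10 genes, the count of 2 called at 8 weeks was also found with DESeq2, edgeR's likelihood ratio test, DESeq2's size factors, upper-quartile scaling, limma-voom, no filter and a fit of 8wk STZ and Control only. It was 1 with library totals as the only scaling, 0 without Control 3 and 4wk STZ 3 together (the pair that stood apart), and 0 to 2 without single libraries. The wider list had 4 calls, 3 with library totals (Slc29a1 lost), 3 with the 2 groups alone (Adora1 lost), 2 without Control 3 and 4wk STZ 3 together and 1 to 3 without single libraries. DESeq2 called 3 of the wider list and edgeR's likelihood ratio test 1 at 4 weeks, and DESeq2 called 1 member and 1 gene of the wider list in 8wk STZ against 4wk STZ. Over all genes at 8 weeks, 449 calls became 1451 with DESeq2, 1166 with edgeR's likelihood ratio test, 275 without Control 3 and 4wk STZ 3 together and 206 to 255 without single libraries. At 4 weeks, 0 became 314, 244 and, without the filter, 12, and 0 to 1 without single libraries. In 8wk STZ against 4wk STZ, 174 became 1004 and 759, 277 without the filter, 100 with the 2 groups alone, 6 without Control 3 and 4wk STZ 3 together and 13 to 118 without single libraries. Higher calls were 41% of the total at 8 weeks, 66% with library totals, which shifted the median gene by 0.104, and 30.9% with upper-quartile scaling. In 8wk STZ against 4wk STZ the shares were 43.1, 70.8 and 31.2%. The cause of these differences was not tested.

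The labels share replicate numbers between groups. Same-numbered libraries did not deviate together over all tested genes (correlations -0.0297 to 0.0348). Such correlations cannot tell whether a number marks a shared litter, day or batch, which the labels do not give. With a replicate block, 0 members and 0 genes of the wider list were called at 8 weeks (P2ry13 -0.54, adjusted p = 0.102; Entpd1 -0.39, adjusted p = 0.135), and the calls over all genes were 44 at 8 weeks and 0 in 8wk STZ against 4wk STZ.

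No called value changed sign. Signs of values near 0 did, all as log2 fold changes. Without Control 3 and 4wk STZ 3 together, the 4-week values were 0.33 for Ada, 0.00419 for Adora3, 0.013 for Calhm2, 0.016 for Lrrc8a and 0.089 for P2rx4, and P2rx7 in 8wk STZ against 4wk STZ was -0.00801. Without single libraries, the 4-week ranges were -0.96 to 0.15 for Ada, -0.17 to 0.048 for P2ry12, -0.18 to 0.00139 for P2rx4, -0.30 to 0.029 for Kcnk13 and -0.10 to 0.055 for Lrrc8a. At 8 weeks they were -0.022 to 0.70 for Ada and -0.091 to 0.067 for Calhm2, and between the STZ times -0.20 to 0.24 for Adora1, -0.00744 to 0.16 for P2rx7 and -0.072 to 0.059 for P2ry6. With library totals, 8wk STZ over 4wk STZ gave 0.083 for P2ry6 and 0.00839 for Lrrc8a. Without the filter P2ry6 gave 0.023, and with the replicate block Adora1 gave -0.20. Calhm2 at 8 weeks was -0.00576 with DESeq2's size factors, -0.00581 with DESeq2, -0.042 with upper-quartile scaling and -0.012 with the replicate block.

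Low counts limit Panx1, Ada and Adora2a, and 3 to 4 animals a group limit all values.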
